A study of Mus musculus with 6 samples.

Results

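miR-103-3p and miR-107-3p are near-identical microRNAs (miRNAs) that are made from introns of the pantothenate kinase genes. They were taken by their exact names, mmu-miR-103-3p and mmu-miR-107-3p, which are 2 of the 1224 names in the deposited table of miRNA reads. The table comes from GC-1spg, a cell line of mouse testis origin that was immortalised with a viral oncogene and serves as a model of spermatogonia. The cells carried either an siRNA against METTL3 (si-METTL3, 3 libraries) or a control siRNA (si-NC, 3 libraries), and all were collected 48 h after transfection. METTL3 is the catalytic subunit of the enzyme complex that places N6-methyladenosine (m6A) on RNA. The labels give the same siRNA sequence for both groups and name no separate cultures behind the libraries of a group. The p-values therefore rest on the spread among libraries, which may be technical only. The knockdown could not be checked in counts of mature miRNAs.

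A primary miRNA transcript is cut in the nucleus by Drosha and in the cytoplasm by Dicer, and 1 strand of the resulting duplex is loaded into an Argonaute protein. The loaded strand finds its targets mainly through its seed, the bases near its 5′ end. miR-103 and miR-107 are known in other cells as repressors of Dicer and, in mouse liver and fat, as regulators of insulin sensitivity through caveolin-1. Their host genes encode pantothenate kinases, which catalyse the first step of coenzyme A synthesis. In other systems m6A set by METTL3 on primary miRNA transcripts has been reported to promote their cutting.

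The mature sequences are shown because a single base separates them. They are from RefSeq, build GRCm38.p6, in which both names were matched, and each equals the deposited sequence. Capitals mark the seed (bases 2 to 8) and the base that differs.
miR-103-3p: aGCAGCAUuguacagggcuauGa
miR-107-3p: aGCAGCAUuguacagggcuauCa
Counted from 1 at the 5′ end, the substitution from miR-103-3p to miR-107-3p is G22C, so 22 of 23 positions were identical and the first 21 bases were shared. A read that ends before base 22 cannot be assigned to either miRNA from its sequence. The sources used here do not give how the authors assigned such reads. No other mouse name in the table held the same seed.

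miR-103-3p has 2 genomic sources and miR-107-3p has 1. The hairpins are shown from RefSeq, with the mature 3p strand in capitals, because the mature strand of miR-103-3p does not tell which of its hairpins it came from.
Mir103-1: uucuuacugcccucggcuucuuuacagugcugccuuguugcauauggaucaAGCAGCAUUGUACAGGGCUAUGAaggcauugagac
Mir103-2: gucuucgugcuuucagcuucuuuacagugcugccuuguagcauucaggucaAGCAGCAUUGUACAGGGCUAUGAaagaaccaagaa
Mir107: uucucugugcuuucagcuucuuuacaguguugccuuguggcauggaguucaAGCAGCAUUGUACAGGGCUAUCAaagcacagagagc
On build GRCm38 (mm10), Mir103-1 lies at chr11:35782396-35782481 on the plus strand, in intron 5 of Pank3-201. Mir103-2 lies at chr2:131288052-131288137 on the plus strand, in intron 5 of Pank2-204. Mir107 lies at chr19:34820687-34820773 on the minus strand, in intron 5 of Pank1-201. In the GENCODE M21 annotation each hairpin stood on the same strand as its host gene and in an intron of every annotated host transcript that spans it. The letters GGAC, a common core of the m6A consensus, were searched on the RNA strand of the hairpins. They occurred in 0 of the 3 hairpins and in 25.3% of the 198 RefSeq mouse hairpins of 80 to 90 bases. Other forms of the consensus, and the primary transcripts beyond the hairpins, were not searched.

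The 6 libraries held 3998058 to 6132668 reads behind the authors' normalised values, and the deepest was si-METTL3 1. Of 16 miRNAs fixed as markers of the germ line and spermatogonia, 15 were counted in every library, with miR-21a-5p, which is not specific to germ cells, among them. Of the 14 tested, 2 passed as higher (miR-34c-5p and miR-146a-5p) and 4 as lower (miR-221-3p, miR-222-3p, miR-741-3p and miR-743b-3p). None of 7 markers of pluripotent cells was listed in the table as analysed here. For 2 markers of testis somatic cells the summed level was 17.8 to 20.3 CPM in si-NC and 16.9 to 21.3 CPM in si-METTL3. The 1 tested did not pass. Both endothelium markers were tested and did not pass, and the 1 marker of liver and serum was not tested. The summed level of 7 blood markers was 131 to 153 CPM in si-NC and 164 to 169 CPM in si-METTL3. Of the 6 tested, only miR-486a-5p (mean 84.2 CPM) had an adjusted p under 0.05, as higher (log2 change 0.46, adjusted p 1.2e-04, edgeR). The summed level of 4 muscle markers was 89.7 to 93.2 CPM in si-NC and 49.3 to 64.6 CPM in si-METTL3. Of the 2 tested, only miR-206-3p (mean 70.4 CPM) passed, as lower (log2 change -0.75, adjusted p 7.5e-07, edgeR). The summed level of the 3 neuron markers in the table was 207 to 229 CPM in si-NC and 263 to 303 CPM in si-METTL3. The 1 tested, miR-128-3p (mean 252 CPM), passed as higher (log2 change 0.41, adjusted p 2.5e-05, edgeR). Over all 622 names tested, 17.7% passed as higher and 11.6% as lower. All libraries come from the same cell line, and whether it held cells of these types was not tested. Nor was a part of such cells in the results on miR-103-3p and miR-107-3p. In bulk samples fewer cells of a type and less RNA per cell cannot be told apart.

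After METTL3 siRNA, miR-107-3p was lower in every library, while miR-103-3p showed no change that passed the test. The level of miR-107-3p relative to the rest of the library fell to 0.82 of its control level, and the reads of miR-103-3p per read of miR-107-3p went from 4.58 ± 0.145 to 5.73 ± 0.317 (mean ± SD, n = 3).

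miR-103-3p, the more abundant of the pair, was counted 4941, 4950 and 4960 times in si-NC 1 to 3, and 7225, 5554 and 5534 times in si-METTL3 1 to 3. The deposited values normalised to the library total (TPM) were 1219, 1238 and 1239 in si-NC and 1178, 1241 and 1212 in si-METTL3. As CPM with TMM scaling, which brings libraries of different composition to 1 level, they were 1208, 1206 and 1198 CPM in si-NC and 1185, 1279 and 1253 CPM in si-METTL3. On both scales the groups overlapped. With TMM scaling si-METTL3 1 was the lowest library and si-METTL3 2 and si-METTL3 3 the highest. The log2 change of si-METTL3 over si-NC was 0.04 ± 0.04 (SE, adjusted p 0.540 from the two-sided quasi-likelihood test of edgeR, with Benjamini-Hochberg adjustment over 622 names), and it was -0.03 with library totals alone, so its sign depended on the scaling. The 95% interval of the fold ran from 0.967 to 1.10.

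miR-107-3p was counted 1063, 1060 and 1125 times in si-NC 1 to 3, and 1346, 944 and 931 times in si-METTL3 1 to 3. The deposited TPM were 262, 265 and 281 in si-NC and 219, 211 and 204 in si-METTL3. With TMM scaling the levels were 259.8, 258 and 272 CPM in si-NC and 221, 217 and 211 CPM in si-METTL3. Every si-METTL3 library lay below every si-NC library on both scales. The mean was 263 ± 7.31 CPM in si-NC and 216 ± 5.08 CPM in si-METTL3 (SD, n = 3 each), a log2 change of -0.28 ± 0.06 (SE, adjusted p 5.4e-04, edgeR). The fold was 0.822, with a 95% interval from 0.757 to 0.893.

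**Figure D1:**
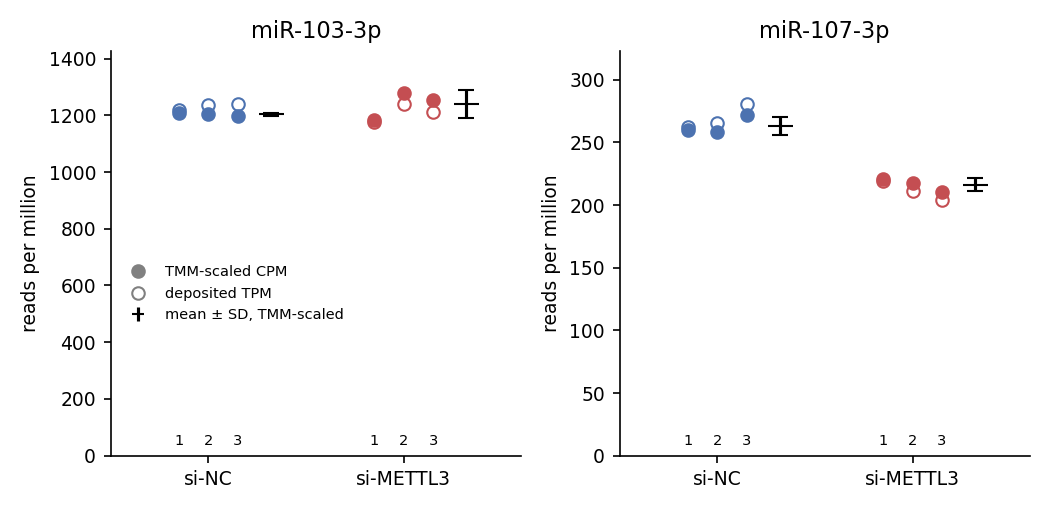
Level of miR-103-3p and miR-107-3p in each library, in TPM or CPM on axes that start at 0. Filled points are TMM-scaled CPM, open points the deposited TPM, digits the replicate numbers and bars the mean ± SD of the TMM-scaled values. The si-METTL3 points of miR-107-3p (211 to 221 CPM) lie below all its si-NC points (258 to 272 CPM), while the points of miR-103-3p overlap.

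Calls were common in this comparison, and more so among abundant names. Over the 622 names, 182 (29.3%) had an adjusted p under 0.05, with 72 (11.6%) lower and 110 (17.7%) higher in si-METTL3. Of the 172 names of at least 100 CPM, a level that both miR-103-3p and miR-107-3p exceed, 101 (58.7%) passed and 41 (23.8%) passed as lower. The groups did not overlap, with si-METTL3 lower, in 111 names (17.8%). The call of miR-107-3p is 1 of these many. The size of its fall was moderate among the lower calls at all levels, since 43 of the 72 lower names fell further and the median of the 72 was -0.35 on the log2 scale. Among the 172 names of at least 100 CPM, 13 had a lower log2 change than miR-107-3p. Of the 41 of these that passed as lower, 13 fell further than miR-107-3p.

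**Figure D2:**
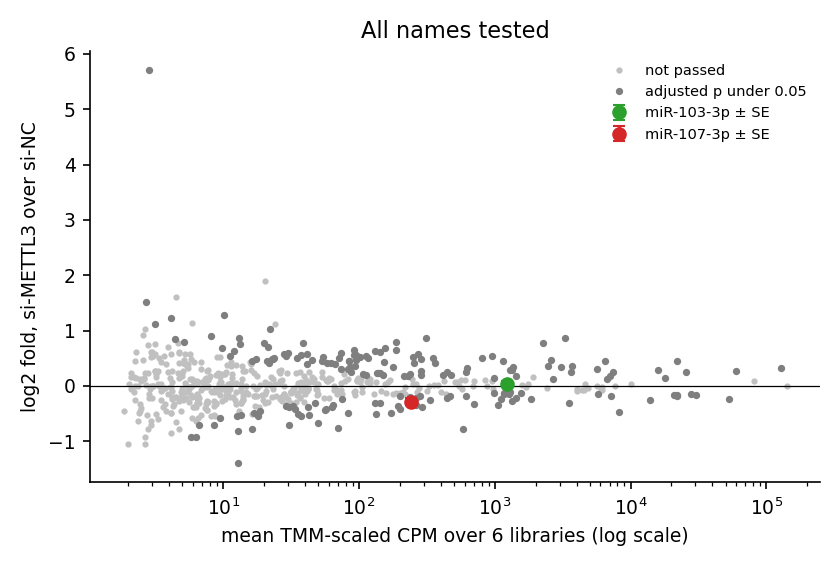
Log2 change of si-METTL3 over si-NC against the mean TMM-scaled CPM (log scale) for the 622 names tested, with darker points for an adjusted p under 0.05 and bars of ± SE on both named miRNAs. miR-107-3p (log2 change -0.28) lies below the line of no change and miR-103-3p (0.04) close to it.

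In the authors' deposited table, the log2 fold change was -0.35 for miR-107-3p and -0.03 for miR-103-3p. The FDR in the authors' deposited table was 4.0e-05 for miR-107-3p and 0.675 for miR-103-3p. Neither name was among the 50 (4.08%) on the authors' deposited table of differently expressed miRNAs, on which the smallest absolute log2 fold change was 1.01. In all, 168 names (13.7%) had an FDR under 0.05 in the authors' deposited table, and 20 of them were on that list.

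The balance of both miRNAs within a library does not depend on how libraries are scaled. miR-107-3p held 17.7%, 17.6% and 18.5% of the reads of the pair in si-NC 1 to 3. Its shares in si-METTL3 1 to 3 were 15.7%, 14.5% and 14.4%. The widest 95% intervals (exact Clopper-Pearson, counting error only) were 17.5% to 19.5% in si-NC 3 and 16.7% to 18.7% in si-NC 1. Every si-METTL3 share lay below every si-NC share, and the share of si-METTL3 1 (15.7%, interval 14.9% to 16.5%) was the nearest to si-NC. The log2 ratio of miR-107-3p over miR-103-3p was -2.19 ± 0.05 in si-NC and -2.52 ± 0.08 in si-METTL3 (mean ± SD, n = 3 each), a difference of -0.32. An exact two-sided permutation test over libraries gave p 0.1, the smallest that 3 against 3 libraries allow, and 0.15 after adjustment over the 3 measures tested this way. With 3 against 3 libraries this test cannot reach 0.05, so it cannot decide whether the responses of miR-107-3p and miR-103-3p differ.

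**Figure D3:**
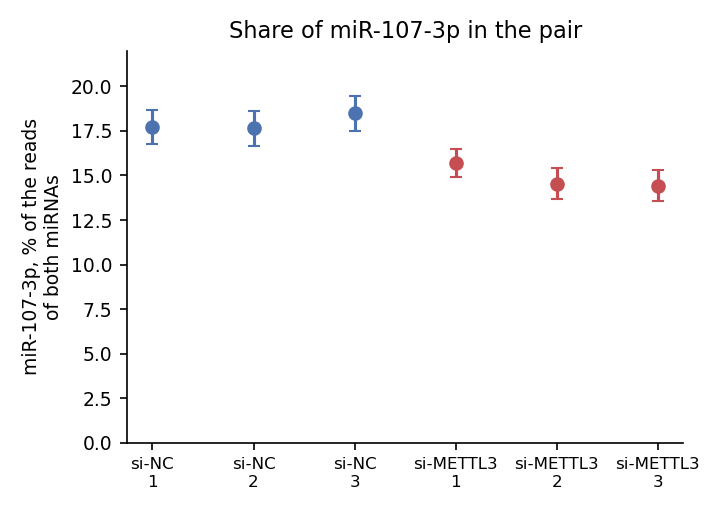
Share of miR-107-3p in the summed reads of miR-103-3p and miR-107-3p, in percent, for each library, with exact 95% binomial intervals that cover counting error only. The si-NC shares lie between 17.6% and 18.5% and the si-METTL3 shares between 14.4% and 15.7%.

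Since both miRNAs have the same seed, their summed level was also compared. Over library totals the sum was 1481, 1503 and 1520 CPM in si-NC 1 to 3 and 1398, 1452 and 1415 CPM in si-METTL3 1 to 3. The mean went from 1502 ± 19.3 to 1422 ± 28.0 CPM (SD, n = 3), without overlap (exact two-sided permutation p 0.1, adjusted p 0.15). This separation rested on the scaling. The difference was -79.7 CPM over library totals. With TMM scaling the means were 1467 and 1456 CPM, a difference of -11.5 CPM (exact two-sided permutation p 0.7), and the groups overlapped.

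The table also holds other miR-103 and miR-107 names. The sequences of those that begin like the mature strands are shown as deposited, with the bases past the shared first 20 in capitals, because their names and their sequences do not follow each other and none of them is found whole in the mouse hairpins above.
miR-103-y: agcagcattgtacagggctaTGATT
miR-103-z: agcagcattgtacagggctaTGACT
miR-107-y: agcagcattgtacagggctaAA
miR-107-z: agcagcattgtacagggctaTGATT
The names ending in -y and -z lack the mouse prefix and are called names of other species here. The sources used here do not define these endings, so that reading is an assumption. miR-103-y and miR-107-z held the same 25-base sequence, which extends the whole of miR-103-3p by 2 bases, but carried different counts, 850 and 599 in all. Of the 28 sequences in the table that stood under several names, 20 had identical counts under each name. miR-107-y, a 22-base sequence, shared its first 20 bases with both mature strands, and then ended in bases of neither. None of these names extended miR-107-3p.

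Together the names other than miR-103-3p and miR-107-3p held a small share of the reads. miR-103-3p held 80.2% and miR-107-3p 15.6% of all reads under miR-103 and miR-107 names. The share of the other names was 4.15%, 4.44% and 4.46% in the si-NC libraries 1 to 3, and 4.31%, 4.07% and 3.85% in the si-METTL3 libraries. These ranges overlapped (exact two-sided permutation p 0.2, adjusted p 0.2). The 25-base sequence, summed over its names, stood at 4.51 ± 0.0752 reads per 100 reads of miR-103-3p in si-NC, and at 4.21 ± 0.440 in si-METTL3 (mean ± SD, n = 3 each).

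Of the 3 variant names that could be tested, 0 passed with edgeR, limma or DESeq2 on all libraries with the group as the only term, and 1, miR-107-y, had an unadjusted p under 0.05 with edgeR. miR-107-y was counted 31, 42 and 50 times in si-NC and 34, 32 and 36 times in si-METTL3, with a log2 change of -0.52 ± 0.23 (SE, unadjusted p 0.031, adjusted p 0.094, edgeR). Its groups overlapped on the CPM scale. It passed as lower without si-NC 1 (log2 change -0.68, adjusted p 0.024, edgeR). A further fit had a term for 3 sets of libraries that differ in the invertebrate miRNA names they hold. In that fit a change comes from si-METTL3 1 compared with si-NC 2 and si-NC 3, the only libraries in a set that holds both groups. The log2 change of miR-107-y there was -0.997 ± 0.32 (SE), from 34 counts in si-METTL3 1 against 42 and 50. miR-103-y had a log2 change of -0.13 ± 0.12 (adjusted p 0.476) and miR-107-z one of 0.04 ± 0.15 (adjusted p 0.878), whose sign turned with library totals alone (-0.02) and without si-NC 3 (-0.02) or si-METTL3 1 (-0.04). miR-103-z, counted 4 to 13 times a library, did not pass the filter on low counts.

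The passenger strand was rare. The 5p strand of Mir103-2, miR-103-2-5p (agcttctttacagtgctgccttg), is the strand opposite to miR-103-3p in the duplex. It was counted 2, 6 and 4 times in si-NC 1 to 3 and 4, 2 and 4 times in si-METTL3 1 to 3, too few to pass the filter. Over all libraries it made up 0.0663% of the reads of miR-103-3p and miR-103-2-5p (exact 95% interval 0.0415% to 0.1%). Since miR-103-3p also comes from Mir103-1, this is not a strand ratio of a single hairpin. The 5p strands of Mir103-1 and Mir107, which differ from it by 1 base each, were not analysed here.

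By level, miR-103-3p ranked 57th and miR-107-3p 104th among the mouse names, both well below the most abundant miRNAs. The mouse names next to miR-103-3p in mean CPM were miR-196a-5p and miR-152-3p above it and miR-199a-3p and miR-199b-3p below it. In si-NC no library of these 4 reached into the range of miR-103-3p (1198 to 1208 CPM), and in si-METTL3 all 4 overlapped it. miR-199a-3p and miR-199b-3p share a sequence and are nearly the same reads.

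The names next to miR-107-3p moved in both directions. Above it stood miR-128-3p, from introns of R3hdm1 and Arpp21, which rose from 217 ± 11.3 to 288 ± 23.4 CPM (SD, n = 3, log2 change 0.41, adjusted p 2.5e-05, edgeR). miR-185-5p, also above it, rose from 204 ± 5.29 to 293 ± 3.12 CPM (log2 change 0.52, adjusted p 1.5e-07, edgeR). miR-107-3p was thus above both of them in si-NC and below both in si-METTL3, with no overlap of libraries in either group. Below it, miR-92a-1-5p fell from 252 ± 3.35 to 220.2 ± 3.46 CPM (log2 change -0.19, adjusted p 0.012, edgeR). That call was lost without si-METTL3 2 (adjusted p 0.057, edgeR). It was also lost with the term for sets of libraries, at a log2 change of -0.17 ± 0.10 (SE). miR-210-3p, a hypoxia-induced miRNA, went from 215 ± 20.2 to 245 ± 16.001 CPM (log2 change 0.19, adjusted p 0.046, edgeR). That call held in 7 of 20 other settings. It was lost when replicate 1 or 2 of si-NC or replicate 2 or 3 of si-METTL3 was dropped (adjusted p 0.106 to 0.1998, edgeR). Library totals alone (0.218), limma at each pseudocount, edgeR's exact test (0.056) and DESeq2's Wald test (0.158) did not keep it either. With the term for sets of libraries the log2 change of miR-210-3p was 0.04 ± 0.10 (SE).

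The 2 miRNAs did not have each other as nearest profile across libraries. Likeness was measured as the root mean square difference of log2 CPM, each name centred on its own mean over the 6 libraries, among the 137 mouse names of at least 100 CPM. It is a description, since all names share the same libraries and their scaling. The measure also contains the difference between the groups. Names picked by it therefore have log2 changes near that of the miRNA they resemble, by the way they were picked. For miR-103-3p the nearest names were miR-199b-3p (0.03), miR-199a-3p (0.03) and miR-10b-5p (0.04), and miR-107-3p came 108th of 136 (0.17). For miR-107-3p the nearest were miR-221-3p (0.03), miR-181b-5p (0.03) and miR-143-3p (0.04), and miR-103-3p came 70th of 136 (0.17). The log2 changes of the last 3 were -0.24, -0.30 and -0.23 (adjusted p 8.0e-05, 0.0010 and 2.2e-04, edgeR), beside -0.28 for miR-107-3p. In the fit with the term for sets of libraries, which rests on fewer libraries, the calls of miR-181b-5p and miR-143-3p were lost. The log2 changes there were -0.28 ± 0.12 (SE) for miR-181b-5p and -0.15 ± 0.06 for miR-143-3p.

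miRNAs of the miR-15/16 family carry the first 7 bases of miR-103-3p and miR-107-3p, AGCAGCA, but from base 2, so that their seed is that of miR-103 and miR-107 moved by 1 base. Members of this family are known repressors of cyclins and other cell cycle genes. These RefSeq sequences are shown with bases 2 to 8 in capitals.
miR-16-5p: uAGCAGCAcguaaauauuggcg
miR-15b-5p: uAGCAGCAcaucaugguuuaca
miR-497a-5p: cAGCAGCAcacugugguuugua
Of the 6 mouse names of this kind, all tested, 3 rose, 0 fell and 3 did not pass, with a median log2 change of 0.18, beside 0.0054 over all 622 names. Over all names 17.7% passed as higher and 11.6% as lower, and 58.7% of those of at least 100 CPM, a level that 5 of the 6 exceed, passed either way. With library totals alone 2 rose and 1 fell, and the median was 0.11, beside -0.06 over all names.

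The members that passed were higher in si-METTL3, while the most abundant, miR-16-5p, had a log2 change below 0. miR-15b-5p, from an intron of Smc4, was at 1171 ± 3.78 CPM in si-NC, close to the level of miR-103-3p, and at 1430 ± 52.2 CPM in si-METTL3 (SD, n = 3, log2 change 0.29 ± 0.04 SE, adjusted p 1.2e-05, edgeR). miR-497a-5p rose from 38.2 ± 5.92 to 52.7 ± 2.30 CPM (log2 change 0.47 ± 0.11, adjusted p 0.0025, edgeR). For miR-15a-5p the rise was 0.23 ± 0.07 (adjusted p 0.0098, edgeR). That call was lost without si-METTL3 3 (adjusted p 0.057), with library totals alone (0.076) and in DESeq2's Wald test (0.071). It was also lost with the term for sets of libraries, at a log2 change of 0.21 ± 0.12 (SE). For miR-16-5p the log2 change was -0.09 ± 0.04 (adjusted p 0.124, edgeR). It passed as lower with library totals alone (-0.15, adjusted p 0.0034), with limma at each pseudocount (adjusted p 0.0039 to 0.0042) and among names of at least 10 CPM (-0.10, adjusted p 0.042, edgeR).

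**Figure D4:**
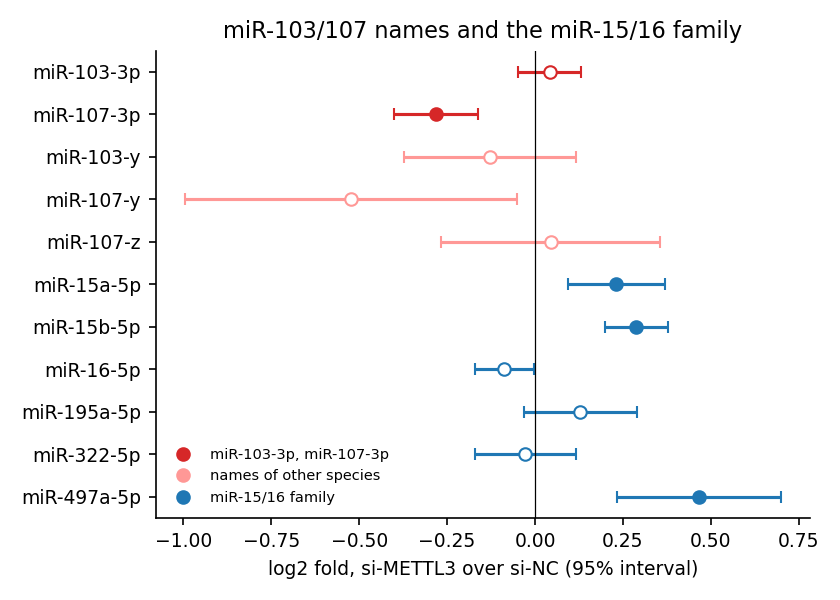
Log2 change of si-METTL3 over si-NC with its 95% interval for miR-103-3p and miR-107-3p, the 3 tested variant names and the miR-15/16 family, with filled points for an adjusted p under 0.05. Of the miR-103 and miR-107 names, miR-107-3p (-0.28) is the filled one, and miR-15a-5p (0.23), miR-15b-5p (0.29) and miR-497a-5p (0.47) lie on the other side of 0.

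Other miRNAs from introns of protein-coding genes were listed by their hosts, leaving out miR-103-3p and miR-107-3p. Of 60 tested, 18 rose and 4 fell, with a median log2 change of 0.06, beside 17.7% higher, 11.6% lower and a median of 0.0054 over all 622 names. Among names of at least 100 CPM 58.7% passed either way, and the list was not split by level. With library totals alone 14 rose and 7 fell, with a median of -0.01, beside -0.06 over all names. Among the most abundant, miR-26a-5p, from introns of the Ctdsp phosphatase genes, rose from 14230.3 ± 114 to 17347 ± 102.5 CPM (log2 change 0.29, adjusted p 2.0e-06, edgeR). miR-191-5p, from Dalrd3, rose by a log2 change of 0.44 (adjusted p 1.1e-08) and miR-30e-5p, from Nfyc, by 0.25 (adjusted p 2.5e-05), while miR-30c-5p had a log2 change of -0.03 (adjusted p 0.684). The largest rises were those of miR-615-3p (0.87), miR-425-5p (0.66) and miR-140-5p (0.64). The falls of largest size were those of miR-326-3p (-0.77), miR-16-1-3p (-0.39) and miR-30c-2-3p (-0.37), each larger than that of miR-107-3p. The call of miR-16-1-3p was lost in the fit with the term for sets of libraries (log2 change -0.30 ± 0.17 SE). The list took every copy of a listed miRNA. miR-16-1-3p and miR-30c-2-3p, counted among the falls, are therefore copies that were not shown to lie in a listed host. Some other names come from several hairpins, of which not all are intronic.

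The list of miRNAs linked in other tissues to lipid, glucose and insulin metabolism, again without the Pank miRNAs, had 45 tested members. Of these 10 rose and 9 fell, and the median log2 change was 0.0082, beside 17.7% higher, 11.6% lower and a median of 0.0054 over all 622 names. This list was not split by level either, and 58.7% of names of at least 100 CPM passed either way. With library totals alone 8 rose and 12 fell, with a median of -0.06. In the fit with the term for sets of libraries 9 rose and 3 fell. The rises of largest size were those of miR-148a-5p (0.57), miR-26b-3p (0.53) and miR-185-5p (0.52). miR-375-3p, known from pancreatic beta cells, fell from 8.27 ± 0.449 to 4.31 ± 0.805 CPM (SD, n = 3, log2 change -0.92 ± 0.25 SE, adjusted p 0.0066, edgeR). That call was lost in DESeq2's Wald test (adjusted p 0.056). It was also lost with the term for sets of libraries, at a log2 change of -0.74 ± 0.36 (SE). miR-29b-1-5p fell by 0.80 and miR-27a-5p by 0.51 on the log2 scale. The call of miR-29b-1-5p was lost with that term (log2 change -0.69 ± 0.27 SE). miR-148a-5p, miR-26b-3p, miR-29b-1-5p and miR-27a-5p are each rarer than the opposite strand. The log2 changes of the opposite strands were 0.26 (miR-148a-3p), -0.15 (miR-26b-5p), 0.04 (miR-29b-3p) and 0.31 (miR-27a-3p). Their adjusted p were 1.8e-04, 0.0074, 0.625 and 1.0e-06 (edgeR). Of the most abundant, miR-27b-3p rose by 0.33 (adjusted p 7.1e-07, edgeR), and miR-21a-5p had a log2 change of 0.0082 (adjusted p 0.922), which was -0.06 with library totals alone.

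The result for miR-107-3p was recomputed under 20 other settings. It passed in 20 of 20, with log2 changes from -0.35 to -0.26 and adjusted p from 6.2e-05 to 0.041. The highest adjusted p came from the fit with the term for sets of libraries. In that fit the change comes from si-METTL3 1 compared with si-NC 2 and si-NC 3, the only libraries in a set that holds both groups, and it was -0.26 ± 0.10 on the log2 scale (adjusted p 0.041, edgeR). In the same fit miR-103-3p was at -0.02 ± 0.07 (adjusted p 0.876). miR-103-3p passed in 0 of the 20, with log2 changes from -0.03 to 0.07, 15 above and 5 below 0, and its unadjusted p in the reported fit was 0.353.

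**Figure D5:**
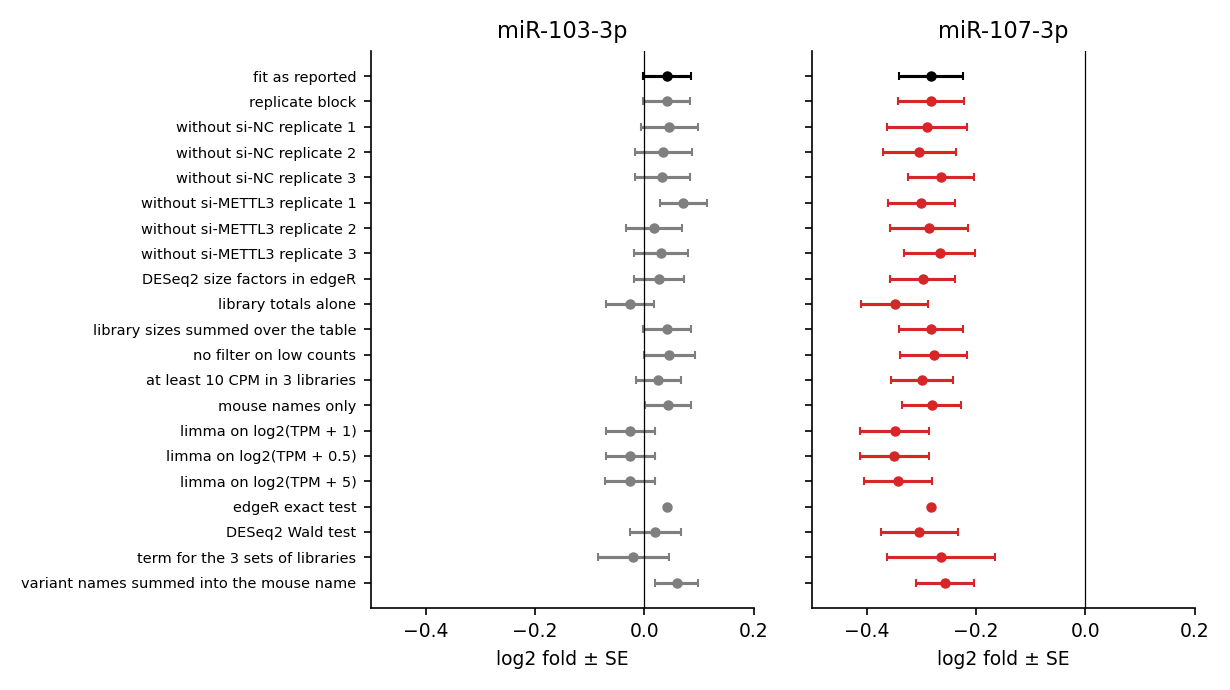
Log2 change ± SE of miR-103-3p and miR-107-3p under the reported fit (black) and 20 other settings, with red points for an adjusted p under 0.05 and grey for none. edgeR's exact test gives no SE. All points of miR-107-3p lie between -0.35 and -0.26, and those of miR-103-3p lie on both sides of 0.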

How the data were processed

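Small RNA reads of 6 libraries of GC-1spg cells were counted per miRNA name by the authors. The build mm10 and the tools fastp, Bowtie2, RSEM and StringTie are named in the submitters' processing notes, without roles or versions. Per the file headers, each library has a deposited count of reads and a deposited TPM. Each TPM equalled its count scaled by 1 library total (CPM, largest gap 5e-05), with 0 written as 0.01. The authors' log2 fold change and p-value stand beside them, and the test behind it is not stated. Of the table, 2 lines were emptied before it was handed over. They are not analysed here.

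Counts were tested with edgeR 4.0.16 (quasi-likelihood, robust, TMM, filterByExpr, library sizes from the TPM, 4 residual degrees of freedom) over 622 names, checked on simulated counts. Measures of single values used exact permutation tests (scipy 1.17.1). Alternatives used limma 3.58.1 and DESeq2 1.42.0. At these depths 3 counts stand for 0.489 to 0.75 CPM. The members, lists and tests were chosen with earlier results of these data known. Other names in the text are the mouse names next in level, those most alike in profile, all miR-103 and miR-107 names, and up to 4 abundant, 3 rising and 3 falling members per list.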

Additional observations from a re-analysis of the deposited data

How the results depend on the processing

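The call of miR-107-3p kept its direction and its side of the threshold in all 20 alternatives run, including the replicate block (log2 fold -0.28, adjusted p 8.0e-04, edgeR) and each refit without 1 library (-0.30 to -0.26, highest adjusted p 0.0040). The log2 fold of miR-103-3p, which did not pass in any, was below 0 with library totals alone (-0.0259), with limma at pseudocounts of 1 (-0.0259), 0.5 (-0.0259) and 5 (-0.0258) added to the TPM, and in the fit with library sets as a term (-0.0203). The median over all names was -0.06 with library totals and 0.0054 with TMM. The count of names that passed ranged from 122 to 190 over the alternatives, against 182, and was 176 with the replicate block. The split of calls depended on the scaling, with 60.4% higher with TMM, 44.9% with library totals alone and 44.9% to 45.3% with limma. Same-numbered libraries of the groups did not deviate together (correlations of -0.36, -0.08 and -0.29 across 622 names), so the numbers were not taken to pair libraries. In paired differences the log2 ratio of miR-107-3p over miR-103-3p differed by -0.32 (exact sign-flip p 0.25, the smallest that 3 pairs allow). Adding the other-species names moved the difference in that ratio to -0.30 by name and to -0.32 by sequence, the latter chosen after seeing the data. Without 1 library it lay between -0.37 and -0.30. With 931 to 1346 reads of miR-107-3p a library, counting error was small beside the difference, while the 5p strand and miR-103-z were too rare for a test.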
